A study of Homo sapiens with 6 samples.

Results

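The genes described here are the 3 transforming growth factor-β ligands (TGFB1, TGFB2 and TGFB3), the 4 latent TGF-β binding protein genes (LTBP1, LTBP2, LTBP3 and LTBP4), the 2 activin β subunits (INHBA and INHBB) and the activin antagonist follistatin (FST). They were chosen by gene symbol, 10 genes of the 24462 symbols counted in each library, and each symbol had 1 row. RNA-seq was available for 6 cultures labelled as PC3, an established line of human prostate cancer cells taken from bone. Of these, 3 had been transfected with a non-targeting siRNA (si-Control) and 3 with siRNA against CITED2 (si-CITED2), a transcriptional coregulator that binds CBP and p300. Both groups carried siRNA at 80 nM and grew in RPMI1640 with serum, and the time from transfection to harvest is not given in the sources used here. The comparison asked how the mRNA of these genes differed after transfection with the CITED2 siRNA. The study describes the experiments as independent repeats. The RNA-seq covers 1 cell line and 1 listed CITED2 siRNA sequence. Effects of that sequence on other genes therefore cannot be told apart here from those on CITED2.

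TGF-β is secreted as an inactive complex. The mature dimer stays bound to its own propeptide, the latency-associated peptide, and this small latent complex is usually linked through a disulfide bond to a latent TGF-β binding protein, which anchors it to fibrillin and fibronectin in the matrix until integrins or proteases release the ligand. LTBP1 and LTBP3 bind the latent forms of the ligands, LTBP4 does so less well, and LTBP2, a component of elastic fibres, does not bind latent TGF-β. Activins are dimers of the inhibin β subunits, signal through the same SMAD2 and SMAD3 proteins as TGF-β, and are held in check by follistatin.

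The si-Control libraries (the controls) held between 19886454 and 28936374 counts, and those labelled si-CITED2 between 19508925 and 24836392. The targeted mRNA was not lower, and CITED2 was at 859, 892 and 773 TMM-normalized counts in the controls and at 1084, 921 and 984 in si-CITED2, so that every library labelled si-CITED2 lay above every si-Control library (log2 fold change 0.24, standard error 0.07, adjusted p = 0.0363 in edgeR's quasi-likelihood test). Directions below therefore refer to libraries labelled si-CITED2 and not to a measured loss of CITED2 mRNA. The study checked the knockdown by immunoblot of the CITED2 protein, which RNA counts do not measure. The epithelial markers EPCAM, KRT8, KRT18 and KRT19 were all well counted (at least 1735 counts in each library), and of the prostate luminal genes KLK2 had 0 counts in all 6 libraries (3 counts, taken as the limit of detection, are 0.104 to 0.154 CPM) and KLK3 had 2 counts in 1 library and 0 in the others. CTNNA1, described as deleted in PC3, went against the label, with 11023 ± 437 normalized counts (SD, n = 3) in si-Control. Of the 6 blood cell markers, HBB, HBA1 and HBA2 were higher in the libraries labelled si-CITED2, with 20 to 59 counts each against 0 to 3 in si-Control, and the summed level of the 6 was 135 to 146 CPM in the controls and 127 to 152 CPM in si-CITED2, nearly all of it CD68. The defining blood markers PTPRC and CD3E had at most 2 counts in any library, and PTPRC was at 0 in every library labelled si-CITED2. The 7 fibroblast markers summed to 5.62 to 5.94 CPM in the controls and 6.75 to 7.76 CPM in si-CITED2, most of it COL1A1. Among them PDGFRA had 1, 1 and 2 counts in the controls and 11, 8 and 7 in the libraries labelled si-CITED2, without overlap, while DCN and LUM had at most 2 counts in any library. Of the epithelial markers KRT8 and KRT18 rose and EPCAM fell. The part of these markers in the results was not tested.

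Of the 10 genes, 8 passed edgeR's filter on low counts and 2, INHBA and INHBB, did not. Among the 8 genes in the fit, LTBP2, LTBP1, TGFB1 and LTBP3 rose and 0 fell at an adjusted p under 0.05. Over all 16314 genes in the fit, 9.36% were called higher and 8.09% lower in the libraries labelled si-CITED2. The median log2 fold change was 0.29 over the 8 genes and -0.00 over all genes in the fit. LTBP2 was also the 1 gene of the 8 to pass an unadjusted p under 0.05 together with a fold change over 2, which 1.59% of all genes did in that direction. In bulk RNA, a change in the number of cells that make a transcript and a change in transcript per cell cannot be told apart.

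**Figure D1:**
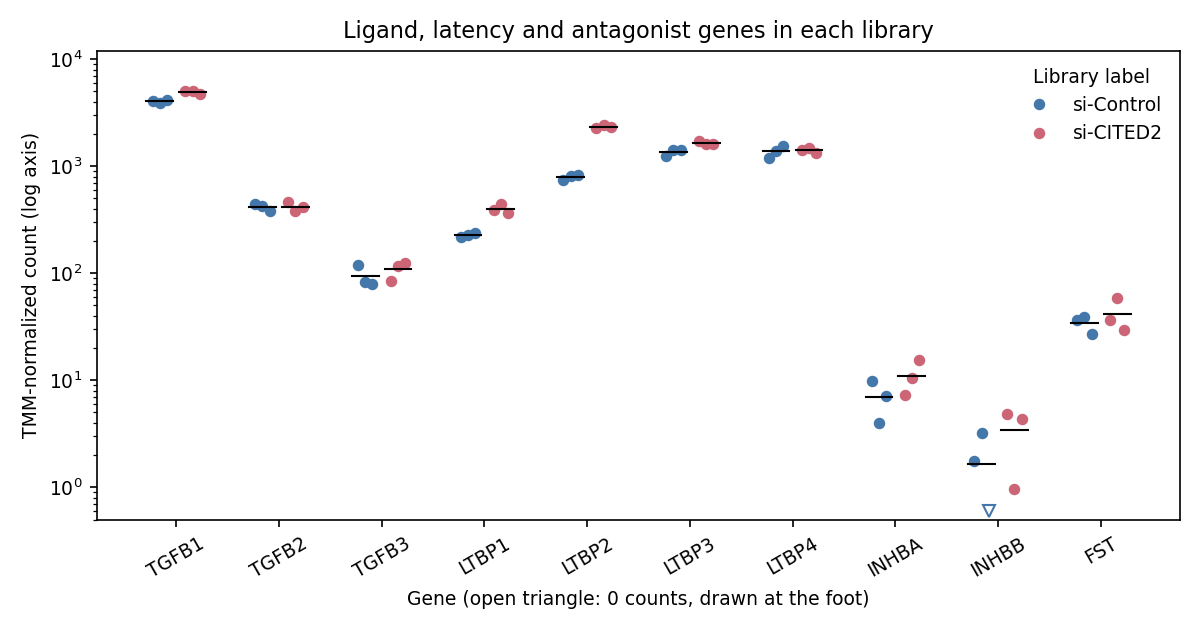
TMM-normalized counts (log axis) of the 10 genes in each library, si-Control in blue and si-CITED2 in red, with the mean of 3 libraries as a bar and 0 counts as an open triangle. The red points lie above the blue points without overlap for TGFB1, LTBP1, LTBP2 and LTBP3, and the points overlap for the other 6 genes. The share of all genes without overlap was not computed, so this split is a description of the points.

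TGFB1 was by far the most abundant of the 3 ligand genes. It was counted at 4029, 3900 and 4182 normalized counts in si-Control replicates 1, 2 and 3, and at 4999, 5051 and 4780 in the libraries labelled si-CITED2. The groups did not overlap, and the means were 4037 ± 141 and 4943 ± 144 (SD, n = 3). The log2 fold change was 0.29 (standard error 0.05, adjusted p = 0.000411 in edgeR's quasi-likelihood test), a 1.23-fold rise with a 95% interval of 1.14 to 1.32. The rise was thus small against that of the other genes called higher, among which TGFB1 ranked at place 1043 of 1527 by fold change. In the GENCODE annotation 215 exonic bases of TGFB1, or 6.6% of its exon bases, lie opposite exons of HNRNPUL1, which had a log2 fold change of -0.06 (adjusted p = 0.419 in edgeR).

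TGFB2, the isoform known for its role in heart and eye development, did not pass the test. It was at 440, 428 and 380 normalized counts in the controls and at 463, 380 and 414 in si-CITED2, and the groups overlapped over nearly their whole range. The log2 fold change was 0.00 (standard error 0.09, adjusted p = 0.993 in edgeR), and the 95% interval of the fold change, 0.87 to 1.15, leaves room only for a small difference. Of the TGFB2 exon bases, 26.6% are also annotated as the transcript TGFB2-OT1 on the same strand, so that reads there could be counted on either symbol. TGFB2-OT1 had 64 to 101 counts per library and a log2 fold change of 0.10 (adjusted p = 0.785 in edgeR).

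TGFB3, which acts in palate fusion, was the lowest of the 3 ligands by count. Its normalized counts were 120, 82.1 and 80.0 in the controls and 85.0, 118 and 126 in si-CITED2. Replicate 1 of the controls and replicates 1 and 2 labelled si-CITED2 lay within the range of the other group, and the log2 fold change was 0.22, close to its standard error of 0.19 (adjusted p = 0.502 in edgeR). The interval of the fold change ran from 0.88 to 1.54, so a rise of the size seen for TGFB1 was not detectable for this gene.

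Within each library, TGFB2 made up 9.59%, 9.71% and 8.19% of the counts on the 3 ligand genes in the controls and 8.34%, 6.85% and 7.78% in si-CITED2. The mean shares were 9.16% ± 0.85 and 7.66% ± 0.75 (SD, n = 3), and 1 si-CITED2 library lay above the lowest si-Control library (exact two-sided permutation test, p = 0.2, where 3 libraries against 3 allow no p below 0.1). TGFB1 held 88.8% ± 1.18 of these counts in the controls and 90.3% ± 0.62 in si-CITED2 (n = 3).

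LTBP2 showed the largest change of the 8 genes. It was at 749, 818 and 835 normalized counts in the controls and at 2254, 2415 and 2316 in the libraries labelled si-CITED2, so that the lowest of the latter stood far above the highest of the former. The means were 801 ± 46 and 2328 ± 81 (SD, n = 3). The log2 fold change was 1.54 (standard error 0.06, adjusted p = 1.72e-11 in edgeR's quasi-likelihood test), a 2.91-fold rise with a 95% interval of 2.66 to 3.18. By fold change LTBP2 ranked at place 117 of the 1527 genes called higher, whose median log2 fold change was 0.40. An annotated non-coding RNA on the opposite strand, AC013451.1, covers 2.3% of the LTBP2 exon bases.

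LTBP1, the binding protein first found in the large latent complex, rose less and from a lower level. Its normalized counts were 217, 227 and 236.5 in the controls and 386, 444 and 369 in si-CITED2, again without overlap. The log2 fold change was 0.82 (standard error 0.10, adjusted p = 2.12e-05 in edgeR), a 1.77-fold rise with a 95% interval of 1.52 to 2.06. The 3 si-Control libraries lay close together (SD 9.8 on a mean of 227), and the libraries labelled si-CITED2 were more spread (SD 39.4 on a mean of 399.9).

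LTBP3, which is needed for bone and tooth development, rose by about as much as TGFB1. It was at 1236, 1423 and 1412 normalized counts in the controls and at 1722, 1611 and 1607 in si-CITED2. The groups did not overlap, and the log2 fold change was 0.28 (standard error 0.06, adjusted p = 0.00547 in edgeR), a 1.21-fold rise with a 95% interval of 1.11 to 1.33. Among the 1527 genes called higher it ranked at place 1095 by fold change.

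LTBP4, a protein of elastic fibre assembly, did not pass the test. Its normalized counts were 1204, 1383 and 1537 in the controls and 1407, 1494 and 1333 in si-CITED2, and all 3 si-CITED2 values lay inside the si-Control range. The log2 fold change was 0.04 (standard error 0.08, adjusted p = 0.775 in edgeR), with a fold change interval of 0.92 to 1.15. The 95% interval of the log2 fold change of LTBP4 (-0.12 to 0.21) did not reach that of LTBP1 (0.61 to 1.04) or LTBP2 (1.41 to 1.67), and it overlapped that of LTBP3 (0.14 to 0.42).

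**Figure D2:**
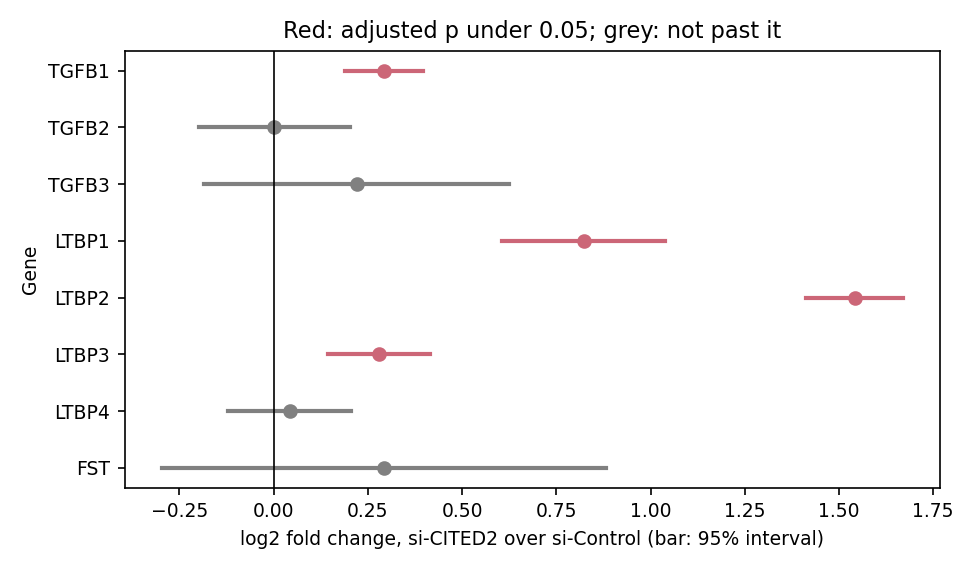
Log2 fold changes (si-CITED2 over si-Control) of the 8 genes in the fit, as points with 95% intervals, red for an adjusted p under 0.05 and grey otherwise. LTBP2 (1.54) and LTBP1 (0.82) lie to the right of the other genes, TGFB1 (0.29) and LTBP3 (0.28) are small with narrow intervals, and the intervals of TGFB2, TGFB3, LTBP4 and FST include 0.

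The unequal changes altered the mix of the latency protein genes. With levels per length (counts divided by the kilobases of the longest coding transcript in GENCODE 29), LTBP2 made up 13.7%, 13.1% and 12.9% of the summed LTBP level in the controls and 26.5%, 27.9% and 28.3% in the libraries labelled si-CITED2. LTBP4 went from 38.5% ± 1.54 to 28.4% ± 0.83 and LTBP3 from 43.2% ± 1.12 to 37.6% ± 1.64 (SD, n = 3), while LTBP1 made up 5.07% ± 0.25 and 6.40% ± 0.47. Each of these shares separated the groups without overlap. The shares of LTBP3 and LTBP4 were lower although neither gene's level fell, since shares add up to a fixed sum. They were computed after the fold changes were known and are given as a description.

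**Figure D3:**
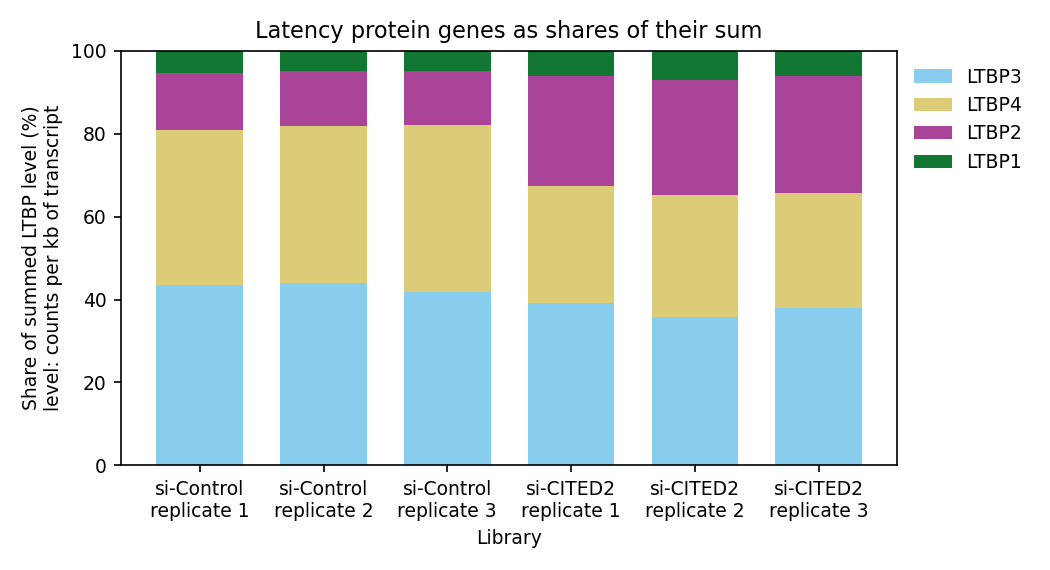
Stacked shares (percent, axis from 0) of LTBP3, LTBP4, LTBP2 and LTBP1 in the summed LTBP level per length, 1 bar per library. The LTBP2 segment is 12.9% to 13.7% in the si-Control bars and 26.5% to 28.3% in the si-CITED2 bars.

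Set against the ligands, the 3 binding proteins that can bind latent TGF-β gave overlapping groups. The summed level per length of LTBP1, LTBP3 and LTBP4 was 0.35, 0.41 and 0.41 of the summed TGFB level in the controls and 0.38, 0.38 and 0.37 in si-CITED2, all 3 of the latter within the range of the controls. The ratio of LTBP1 to TGFB1 alone was 0.025 ± 0.001 and 0.035 ± 0.003 (SD, n = 3), without overlap between the groups. This difference follows from the log2 fold changes of LTBP1 (0.82) and TGFB1 (0.29) and is given as a description.

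By level per length, TGFB1 stood first in both groups, at 61.8 ± 2.16 CPM per kilobase in the controls and 75.7 ± 2.2 in si-CITED2 (SD, n = 3). In si-Control it was followed by LTBP3 (12.96 ± 1.0), LTBP4 (11.6 ± 1.4), LTBP2 (3.97 ± 0.23), TGFB2 (3.49 ± 0.27), TGFB3 (1.58 ± 0.38), LTBP1 (1.52 ± 0.07), FST (0.57 ± 0.10), INHBA (0.049 ± 0.020) and INHBB (0.022 ± 0.021). The neighbours LTBP3 and LTBP4, TGFB3 and LTBP1, and INHBA and INHBB overlapped in range. With the median transcript length in place of the longest, LTBP3 (15.8 to 18.1) lay above LTBP4 (10.3 to 13.2) and INHBA (0.085 to 0.207) above INHBB (0 to 0.043) without overlap, and TGFB3 and LTBP1 still overlapped. In the libraries labelled si-CITED2 the level of LTBP2 (11.5 ± 0.4) had reached that of LTBP4 (11.9 ± 0.7), with overlapping ranges (13.9 ± 0.49 and 12.1 ± 0.69, without overlap, by the median transcript length), and LTBP1 (2.68 ± 0.26) stood above TGFB3 (1.84 ± 0.36), without overlap. INHBA and INHBB were the lowest in both groups.

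The 250 bases before the annotated start of the 2 genes with the largest rises, and of the most abundant ligand gene, are shown to give the sequence context of the changed transcripts. They are from RefSeq (GRCh38.p14) and read 5′ to 3′ along the gene, with matches to the searched motifs in capitals. The counts were made on hg19, from which no coordinates are used. LTBP2 is at chr14:74612238-74612487 (minus strand), LTBP1, at the first of its 3 annotated start windows, at chr2:32946703-32946952 (plus strand), and TGFB1 at chr19:41353923-41354172 (minus strand).
LTBP2: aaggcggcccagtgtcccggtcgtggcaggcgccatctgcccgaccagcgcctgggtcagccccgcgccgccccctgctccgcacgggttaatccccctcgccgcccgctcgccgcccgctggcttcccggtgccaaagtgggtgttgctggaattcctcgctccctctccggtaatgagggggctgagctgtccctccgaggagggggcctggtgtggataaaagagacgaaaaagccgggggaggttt
LTBP1: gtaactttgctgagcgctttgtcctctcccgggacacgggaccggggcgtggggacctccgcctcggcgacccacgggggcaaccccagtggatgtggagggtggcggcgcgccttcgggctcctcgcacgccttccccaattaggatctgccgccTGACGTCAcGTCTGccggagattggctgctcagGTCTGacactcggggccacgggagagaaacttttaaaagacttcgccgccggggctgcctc
TGFB1: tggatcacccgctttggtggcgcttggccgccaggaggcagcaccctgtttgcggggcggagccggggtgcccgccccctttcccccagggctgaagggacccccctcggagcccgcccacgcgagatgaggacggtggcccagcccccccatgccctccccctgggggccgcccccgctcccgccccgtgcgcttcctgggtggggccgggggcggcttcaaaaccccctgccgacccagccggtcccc

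The motifs searched, on both strands and in windows of 250 bases before to 50 bases after the start, were TGANTCA (AP-1), TGACGTCA (CRE), GTCTAGAC (the SMAD palindrome), CAGAC (the SMAD box, GTCTG on the other strand) and TATAAA (the TATA box). The LTBP1 window held the CRE letters 94 to 87 bases before the start, which 1.8% of the 35116 RefSeq windows hold, and GTCTG at 85 to 81 and at 61 to 57 bases before the start. TGFB1 and LTBP2 held none of the 5 motifs in the bases printed, and the LTBP2 window held CAGAC after the start. The motifs do not contain one another. A match is a description of the letters only. CAGAC occurs in 45.3% of all windows, TATAAA in 11.5%, TGANTCA in 7.7% and GTCTAGAC in 0.2%. The gene counts do not tell which of the 3 LTBP1 start sites was used. All 10 genes had at least 1 window in RefSeq, 15 in all.

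The mRNAs of the activin subunits INHBA and INHBB were scarcely counted. INHBA, the βA subunit of activin A, had 11, 5 and 6 counts in the controls and 6, 11 and 14 in si-CITED2, with overlapping groups. Summed over libraries this was 0.292 CPM (95% exact Poisson interval 0.183 to 0.442) in the controls and 0.470 CPM (0.319 to 0.667) in si-CITED2, a ratio of 1.61 with an interval of 0.90 to 2.92. These intervals cover counting error only. INHBB, the βB subunit, had 2, 4 and 0 counts in the controls and 4, 1 and 4 in si-CITED2, close to the 3 counts taken as detectable. A difference between the groups in either subunit was not detectable at this depth.

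FST was at 36.4, 38.6 and 27.1 normalized counts in the controls and at 36.4, 59.2 and 29.6 in si-CITED2. One library labelled si-CITED2 was high and the other two lay within the si-Control range. The log2 fold change was 0.29 (standard error 0.28, adjusted p = 0.546 in edgeR), with a fold change interval of 0.81 to 1.84. The log2 ratio of INHBA to FST counts was -1.90, -3.26 and -1.94 in the controls and -2.32, -2.50 and -0.95 in si-CITED2, so that follistatin counts exceeded INHBA counts in all 6 libraries, and the groups overlapped (exact two-sided permutation test, p = 0.6).

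The other ligands and antagonists of this branch were read from a list of 15 genes, of which 4 were in the fit. FSTL3, a follistatin-like protein that binds activins, was the 1 gene of them that rose. It went from 412, 419 and 390 normalized counts in si-Control to 1472, 1423 and 1400 in si-CITED2 (log2 fold change 1.81, standard error 0.06, adjusted p = 4.24e-12 in edgeR). FSTL1, GDF11 and GDF1 did not pass the test, and 0 of the 4 fell. The remaining 11 genes, among them the inhibin subunits INHA, INHBC and INHBE and the ligand NODAL, had at most 13 counts in any library. The median log2 fold change of the 4 genes was 0.16, against -0.00 for all genes in the fit. Of all genes in the fit, 9.36% were called higher and 8.09% lower.

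A further list held genes that release TGF-β from its latent complex or hold that complex in the matrix. Of 24 listed names, 23 had a row and 16 were in the fit. Of these 16 genes, 11 rose, 0 fell and 5 did not pass the test. Over all genes in the fit, 9.36% were called higher and 8.09% lower. The median log2 fold change was 0.74 over the 16 genes and -0.00 over all genes in the fit. The list was chosen with earlier results of these data known. ITGAV, the αV integrin chain that recognises the latency-associated peptide, rose from 2306 ± 99 to 5824 ± 343 normalized counts (SD, n = 3; log2 fold change 1.34, adjusted p = 3.2e-11 in edgeR). Its partner ITGB3 rose from 240 ± 9.3 to 726 ± 22 (1.59, adjusted p = 3.85e-10 in edgeR), and THBS1, or thrombospondin 1, an activator of latent TGF-β, from 2502 ± 23 to 5647 ± 71 (1.18, adjusted p = 1.72e-11 in edgeR). MMP9, a gelatinase, had the largest log2 fold change of the list (3.87, standard error 0.53) but few counts. It had 3, 1 and 1 counts in si-Control against 22, 31 and 15 in si-CITED2. MMP9 passed the filter through the si-CITED2 libraries alone, so it could enter the fit only as a higher gene. When at least 10 counts were required in every library, 10 genes of the list were called higher. The integrin chain ITGB6, which activates TGF-β in epithelia, had 0 to 3 counts in the controls and 3 to 11 in si-CITED2 and was not in the fit.

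Of the 10 receptor genes, all in the fit, TGFBR1 rose and TGFBR2 fell, and 8 did not pass the test. These counts are near the share of all genes in the fit that was called (9.36% higher and 8.09% lower). TGFBR1, the type I receptor kinase, was at 1297 ± 83 normalized counts in the controls and 1681 ± 48 in si-CITED2 (log2 fold change 0.38, adjusted p = 0.000294 in edgeR). TGFBR2, which binds the ligand and activates TGFBR1, was at 1889 ± 83 and 1597 ± 56 (-0.24, adjusted p = 0.00575 in edgeR). The median log2 fold change of the receptors was 0.01.

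Among 11 SMAD signal genes, 7 rose, 0 fell and 4 did not pass the test (median log2 fold change 0.34). Over all genes in the fit, 9.36% were called higher and 8.09% lower, with a median of -0.00. This list, too, was chosen with earlier results of these data known. The 4 genes of the list with the largest changes were PMEPA1 (log2 fold change 3.60), SMAD7 (2.53), SKIL (2.41) and SMURF2 (1.12). These 4 encode inhibitors of the pathway, several of them known to be induced by it. SKIL, a SMAD corepressor, was at 862, 640.0 and 742 normalized counts in the controls and at 3997, 3934 and 3945 in si-CITED2 (adjusted p = 1.47e-12 in edgeR). The log2 fold changes of PMEPA1, SMAD7 and SKIL were above that of LTBP2 and that of SMURF2 lay between those of LTBP1 and LTBP2.

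**Figure D4:**
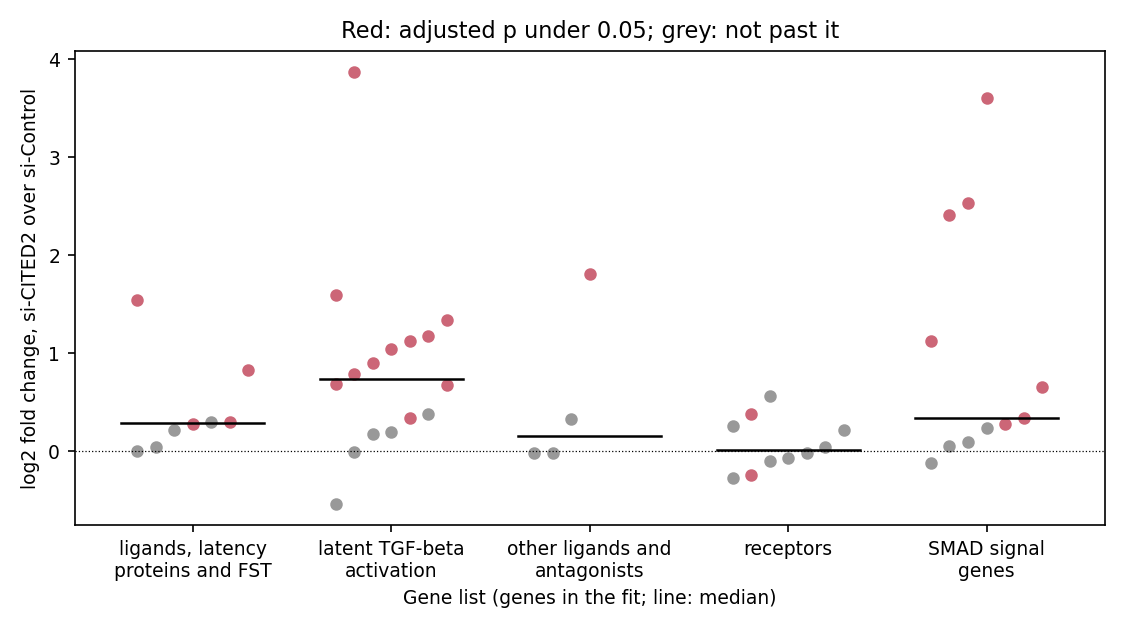
Log2 fold changes (si-CITED2 over si-Control) of the genes in the fit, by list, red for an adjusted p under 0.05 and grey otherwise, with the median of each list as a line. The medians are 0.29 for the ligands, latency proteins and FST, 0.74 for latent TGF-β activation, 0.16 for other ligands and antagonists, 0.01 for receptors and 0.34 for SMAD signal genes.

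The genes whose profile over the 6 libraries was most like that of LTBP2 were PLEK2, CTGF and ITGB3, at Euclidean distances of 0.10, 0.10 and 0.17 between mean-centred log2 CPM values. PLEK2, a pleckstrin family protein, went from 1142 ± 28 to 3237 ± 57 normalized counts, and CTGF, a matricellular protein, from 477 ± 22 to 1323 ± 42 (SD, n = 3). With 6 libraries in 2 groups, a gene that changed by the same factor lies close by this measure, so the likeness is a description.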

How the data were processed

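RNA of the 6 cultures was extracted with Trizol and prepared with a SMARTer mRNA-seq kit, per the labels. The authors deposited unnormalized gene counts, with 1 file for each culture and genes given by symbol. The submitters' processing notes name TopHat, edgeR and the build hg19. The counting program, annotation, strand setting and tool versions are not given in the sources used here. Reads shared by overlapping genes may therefore be assigned either way. Total counts per library lay between 19508925 and 28936374, and intervals on summed counts cover counting error only.

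The files hold 25737 rows, and a repeated symbol was represented by its most counted row. Counts were fitted over the whole table in R 4.3.3 with edgeR 4.0.16 (filterByExpr, TMM, glmQLFit, glmQLFTest, no block, two-sided), with Benjamini-Hochberg adjustment over the 16314 genes in the fit. Standard errors came from the F statistic, and 95% intervals from the t distribution with the fit's degrees of freedom. To normalize, each count was scaled to the mean of the TMM-corrected library sizes. Log2 CPM used a prior count of 2. With 3 libraries per group an exact permutation test cannot go below p = 0.1. No 2 replicates agreed within sampling noise (the lowest chi-square, over its degrees of freedom, was 2.89). The scripts were tested on simulated data. Transcript lengths and overlaps came from GENCODE 29 (GRCh38).

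The genes and lists were chosen with earlier results of these data known. From each list the up to 4 genes with the largest absolute log2 fold change past the test are named, with all 10 genes, CITED2 and the 3 genes nearest to LTBP2. SMAD6, TGIF1, FBN1, BGN, FSTL1, GDF11, GDF1, INHA, INHBC, INHBE, NODAL, ITGB6 and the overlapping genes were named after their values were seen. The alternatives comprised a block for the replicate number, DESeq2 1.42.0, limma-voom (limma 3.58.1), other normalizations and filters, summed rows, the fold change rule and leaving out each replicate.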

Additional observations from a re-analysis of the deposited data

How the results depend on the processing

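The 4 calls among the 8 genes (TGFB1, LTBP1, LTBP2 and LTBP3 higher, 0 lower) kept their direction and an adjusted p under 0.05 in all 14 alternative fits with edgeR, DESeq2 or limma-voom. In these fits the log2 fold change ranged from 1.495 to 1.57 for LTBP2, 0.73 to 0.88 for LTBP1, 0.27 to 0.32 for TGFB1 and 0.21 to 0.32 for LTBP3, whose highest adjusted p was 0.0274. With the rule of an unadjusted p under 0.05 and a fold change over 2, the genes called higher were 1 of the 8, 6 of the activation list, 0 of the receptors (with 0 lower) and 4 of the SMAD list, and 259 higher and 52 lower genes over the whole table. TGFB2, LTBP4 and FST, which did not pass the test, changed sign in some alternatives. TGFB2 was at -0.009 with limma-voom, -0.015 with library size without TMM, and -0.074 to 0.068 when a library was left out. LTBP4 ranged from -0.044 to 0.124 (below 0 without si-Control replicate 1 or si-CITED2 replicate 2) and FST from -0.068 to 0.492 (below 0 without si-CITED2 replicate 2). Leaving out a library gave 10 to 11 genes higher and 0 to 1 lower in the activation list (BGN was lower, -1.02, adjusted p = 0.0402 in edgeR, without si-CITED2 replicate 2, and FBN1 lost its call without si-CITED2 replicate 1), and 6 to 8 higher in the SMAD list, where SMAD6 and TGIF1 lay near the threshold. The difference in the log2 ratio of INHBA to FST was 0.45, and -0.04 to 0.73 with a library left out. The TGFB2 share of the ligand counts was 1.503 percentage points lower, 1.10 to 1.99 with a library left out and 0.89 as a share of counts per kilobase. LTBP2 ranked at place 4 by level per length in si-CITED2 with the longest transcript and at place 3 with the median transcript length.

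Same-numbered libraries did not deviate together (Pearson's r across genes -0.038 to 0.034), and differently numbered ones gave -0.044 to 0.051. This correlation weighs weakly and strongly counted genes alike, with 3 libraries per group, so it cannot exclude a pairing by number. With the replicate number as a block, 4 of the 8 genes were higher and 0 lower, and the table held 1405 higher and 1154 lower genes, against 1527 and 1319 without it. Without the filter, INHBA (log2 fold change 0.68, adjusted p = 0.515) and INHBB (0.80, adjusted p = 0.681) entered edgeR's test and did not pass it. Depth limits what can be said of INHBA, INHBB and FST. The causes of these shifts were not tested.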
